A study of Mus musculus with 15 samples.

Results

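The 10 genes described here, Agr2, Tmem30b, Epcam, Krt8, Krt18, Krt20, Muc2, Cdh17, Lgals4 and Vil1, are markers of colon epithelium. They were taken by symbol from a table of raw counts that holds 26366 genes, and all 10 were found. They had been chosen by their counts in the colon libraries, so their levels in colon are given as a description, with no test. The table covers 15 RNA sequencing libraries labelled as eosinophils, granulocytes of type 2 immunity, from 7 mice of 1 genotype, C57/BL6 WT. Every mouse had been given the carcinogen 4-NQO for 8 weeks and then propylene glycol for a further 8 weeks, a course that the labels call pre-cancer. The libraries held no untreated mice, and ages are not given. There were 7 libraries from the esophageal lamina propria (mice 1, 2, 3, 5, 6, 7 and 8), 4 from the colonic lamina propria (mice 5 to 8) and 4 of bone marrow-derived cells (mice 5 to 8). Cells of both tissues had been obtained by positive selection with magnetic beads. The labels leave unsaid whether the bone marrow group was isolated from marrow or grown from it. The 4 F mice (1, 2, 5 and 6) shared cage 1 and the 3 M mice (3, 7 and 8) shared cage 2, so sex and cage cannot be told apart.

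The colon is lined by a simple columnar epithelium of absorptive colonocytes and mucus-secreting goblet cells. It lies directly on the lamina propria, the connective tissue in which intestinal eosinophils reside. Simple epithelia are held together by cell adhesion molecules such as EpCAM and cadherins, and carry microvilli bundled by villin on the side that faces the lumen. Their intermediate filaments are pairs of a type II keratin, such as keratin 8, with a type I keratin, such as keratin 18 or 20. Eosinophils are not known for any of these structures, so high counts of the 10 genes were taken as a possible sign of epithelial RNA. Low counts were not read in this way. The mean of the summed genes was 217 CPM in bone marrow and 141 CPM in colon without mouse 8.

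The working label of the group speaks of genes carried with colon eosinophils. The counts place nearly all of the signal in 1 of the 4 colon libraries, that of mouse 8, which held 89.3% of the colon counts of the 10 genes. This library also stood apart in other ways. Mitochondrial genes took 7.52% of its counts, against 0.297% to 1% in the other 3 colon libraries and 0.297% to 3.87% in all 14 others. Ribosomal protein genes took 1.29%, against 0.17% to 0.18% in the other colon libraries and at most 0.821% elsewhere. Library totals ran from 85677 to 612386 counts, with the colon library of mouse 8 the deepest. Levels are in CPM, scaled to the library total. Where a gene has no count, its level may still be as high as that of 3 counts, between 4.9 CPM in the deepest library and 35 CPM in the shallowest. Intervals and such limits cover counting error only, because reads of amplified RNA are not independent molecules. All results for colon are therefore given with and without mouse 8, and values of 4 mice are listed in the order 5, 6, 7 and 8.

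Eosinophil markers were read in the same libraries at low counts. The most counted of the list in colon were Csf2rb, the beta chain of the receptors for IL-3, IL-5 and GM-CSF (35, 13, 39 and 52 counts), Ccr3, the eotaxin receptor (17, 15, 28 and 31), and Il5ra, the alpha chain of the IL-5 receptor (10, 5, 20 and 23). All 3 were read in every colon library, as were 74.5% of all 26366 genes. The more specific genes given next were named after their values were seen. The granule peroxidase gene Epx had 3, 0, 9 and 4 counts and Siglecf, a surface lectin, had 7, 2, 13 and 7. Prg2 and Prg3, of the same list, were nearly absent, with 0, 0, 1 and 0 counts and 2, 0, 0 and 0 counts. Summed over 14 eosinophil markers, the level was 271 CPM in the colon of mouse 8 and 216 to 310 CPM in the other colon libraries. Per exonic length, this list lay at 0.64 times the density of olfactory and vomeronasal receptor genes in mouse 8 and at 0.337 to 0.626 times in the others. These 1439 receptor genes act mainly in sensory tissue and were used here as a gauge of background counts. Whether they are silent in these cells was not tested. Other coding genes pooled also lay below the receptor genes, at 4.69, 2.01, 5.07 and 5.29 counts per kb against 8.38, 4.2, 7.92 and 7.47. The eosinophil list thus did not stand out from coding genes at large in colon.

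Summed over the 10 epithelial genes, colon libraries held 82, 26, 84 and 1607 counts. As shares of the library these were 0.0158% (95% Wilson interval 0.0127% to 0.0196%), 0.0114% (0.00781% to 0.0168%), 0.0151% (0.0122% to 0.0187%) and 0.262% (0.25% to 0.276%). The colon of mouse 8 lay 16.6 times above the next colon library, while the other 3 colon libraries lay among the values of the remaining tissues. Bone marrow libraries held 195, 301, 143 and 227 CPM, and esophagus libraries ranged from 24.7 to 455 CPM with a median of 169. The mean of the colon was 762 ± 1242 CPM (SD, n = 4) with mouse 8 and 141 ± 23.3 CPM (n = 3) without it. Bone marrow stood at 217 ± 66.2 CPM (n = 4) and esophagus at 215 ± 144 CPM (n = 7). Without mouse 8, the colon mean was the lowest of the 3. Bulk counts do not separate fewer cells of a type from less RNA per cell.

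**Figure D1:**
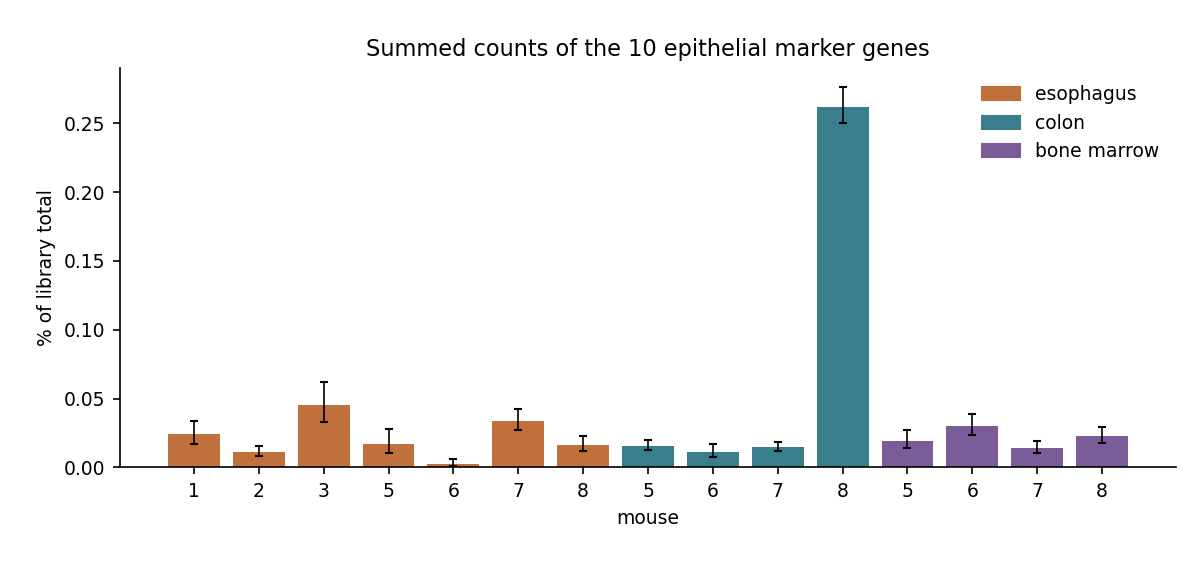
Summed counts of the 10 epithelial marker genes as a percentage of the library total, 1 bar per library in mouse order within tissue, with 95% Wilson intervals for counting error. The colon bar of mouse 8 reached 0.262%, against 0.0114% to 0.0158% in the other colon libraries.

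The secretory lineage was represented by Agr2 and Muc2. Agr2 (ENSMUSG00000020581.12, chromosome 12), a protein disulfide isomerase of the endoplasmic reticulum that goblet cells need to process mucin, had 1, 0, 3 and 384 counts in colon. This equals 1.92, 0, 5.4 and 627 CPM, so that mouse 8 held 99% of all colon counts of the gene and lay 116 times above the next colon library. Bone marrow had 0, 4, 0 and 0 counts, and esophagus 0 to 14 with a median of 0. The highest value outside colon was 157 CPM in the esophagus of mouse 5, whose 14 counts of Agr2 made up 93.3% of its counts for the 10 genes. The colon mean of 159 ± 312 CPM (n = 4) fell to 2.44 ± 2.74 CPM (n = 3) without mouse 8.

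Muc2 (ENSMUSG00000025515.17, chromosome 7), the gel-forming mucin of intestinal mucus, behaved differently. It had 30, 7, 22 and 52 counts in colon, or 57.7, 30.8, 39.6 and 84.9 CPM. Bone marrow had 37, 26.4, 41.9 and 60.8 CPM, and esophagus 0 to 79.2 CPM with a median of 20.4. The 3 tissues overlapped throughout, and mouse 8 exceeded the next library by a factor of only 1.07. Muc2 has 7127 exonic bases, the most of the 10 genes. Its density in the colon of mouse 8 was 7.3 counts per kb, or 0.977 times that of the receptor genes, while Agr2 reached 297 counts per kb, or 39.8 times.

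Lectin, membrane and adhesion genes came next. Lgals4 (ENSMUSG00000053964.18, chromosome 7), which encodes galectin-4, a lectin that holds lipid rafts of the brush border together, had 15, 0, 5 and 404 counts in colon. In CPM these were 28.9, 0, 9 and 660, and the gene had rank 46 of 26366 by counts in the colon of mouse 8. Bone marrow had 21.1, 68.8, 14 and 16.2 CPM and esophagus 0 to 25.6 with a median of 0. Mouse 8 held 95.3% of the colon counts, and its value was 9.59 times the highest of the other 14 libraries, the largest such ratio of the 10 genes. Without it, colon (12.6 ± 14.8 CPM, n = 3) lay below bone marrow (30 ± 26 CPM, n = 4), with overlapping values.

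Tmem30b (ENSMUSG00000034435.7, chromosome 12) encodes a CDC50-type subunit of the flippases that move phospholipids across membranes. Its colon counts were 9, 8, 24 and 322, or 17.3, 35.2, 43.2 and 526 CPM. Bone marrow had 31.7, 95.2, 45.4 and 32.4 CPM, and esophagus 0 to 48.4 with a median of 0. Every colon and bone marrow library held the gene, and without mouse 8 the colon values (31.9 ± 13.2 CPM, n = 3) fell within or below those of bone marrow (51.2 ± 30 CPM, n = 4). The colon of mouse 8 was 5.52 times above the highest other library, the bone marrow of mouse 6.

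Epcam (ENSMUSG00000045394.10, chromosome 17), the epithelial cell adhesion molecule, had 3, 0, 4 and 49 counts in colon and 2, 7, 2 and 7 in bone marrow. Cdh17 (ENSMUSG00000028217.12, chromosome 4), the liver-intestine cadherin, had 14, 2, 12 and 117 counts in colon and 7, 5, 5 and 11 in bone marrow. Both genes were highest in the colon of mouse 8, at 80 and 191 CPM, or 11.1 and 7.09 times the next colon library. In esophagus, Epcam was read in 1 library (17.6 CPM, mouse 7) and Cdh17 in 4, with a median of 5.11 and a highest value of 70 CPM in mouse 3. Without mouse 8, Cdh17 stood at 19.1 ± 9.32 CPM (n = 3) in colon and 31.4 ± 11.9 CPM (n = 4) in bone marrow.

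Vil1 (ENSMUSG00000026175.13, chromosome 1), which encodes villin, the actin bundler of microvilli, was not high in mouse 8. Its colon counts were 3, 1, 3 and 2, or 5.77, 4.4, 5.4 and 3.27 CPM. The colon of mouse 8 was the lowest of the colon libraries for this gene. The highest values were 97.1 and 66 CPM in the esophagus of mice 8 and 7, from 19 and 15 counts. Vil1 overlaps Usp37 on the opposite strand, and since the sources used here do not say whether counting used strand, reads of the overlap cannot be assigned to 1 of them. Usp37 had 76 counts in the colon of mouse 8.

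The 3 keratins parted. Krt8 (ENSMUSG00000049382.11, chromosome 15) had 1, 1, 2 and 266 counts in colon, or 1.92, 4.4, 3.6 and 434 CPM, so that mouse 8 held 98.5% of the colon counts. Krt18 (ENSMUSG00000023043.8, chromosome 15), its type I partner, had 2, 3, 2 and 0 counts, or 3.85, 13.2, 3.6 and 0 CPM. The colon library richest in Krt8 thus had no count of Krt18, which allows at most 4.9 CPM. Krt20 (ENSMUSG00000035775.3, chromosome 11), the type I keratin of mature surface colonocytes, had 4, 4, 7 and 11 counts, and its 18 CPM in mouse 8 were 1.02 times the next colon library. Krt20 also had 3, 3, 0 and 2 counts in bone marrow and at most 1 in any esophagus library. The colon mean of Krt8 was 111 ± 216 CPM (n = 4), and 3.31 ± 1.26 CPM (n = 3) without mouse 8.

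In esophagus, the partners were read in few libraries. Krt8 had 30 counts (212 CPM) in mouse 1 and 17 (74.8 CPM) in mouse 7, and 0 in the other 5 libraries. Krt18 had 32 counts (373 CPM) in mouse 3, 3 in mouse 7, 1 in mouse 2 and 0 in the others. The esophagus library with most Krt8 held no Krt18, the one with most Krt18 held no Krt8, and that of mouse 7 held both. Bone marrow had 3, 2, 5 and 0 counts of Krt8 and 0 of Krt18 in all 4 libraries. Both genes have near copies: Gm5200 matches 90.5% of 1267 aligned bases of Krt18, and Krt8-ps 98.6% of 941 bases of Krt8. Gm5200 had 0 counts in the colon of mouse 8 and 12 in all libraries together, and Krt8-ps was not analysed here. How reads shared between copies were counted is not stated, so both keratin values are uncertain to that extent. Krt8 also overlaps Gm36026, not analysed here, on the opposite strand. No such copy was found for the other 8 genes, with at least 90% identity over 200 bases as the limit.

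**Figure D2:**
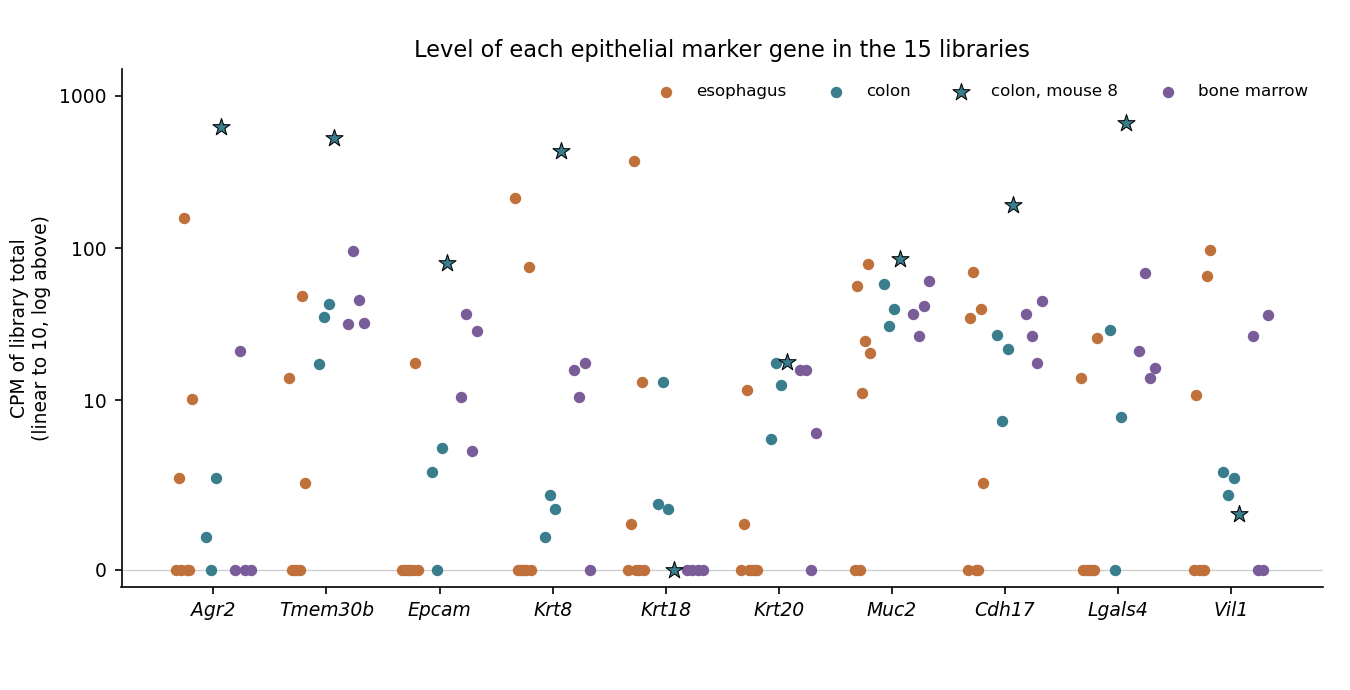
Level of each of the 10 genes in CPM of the library total (y axis, linear to 10 and logarithmic above), 1 point per library, coloured by tissue, with the colon of mouse 8 as a star. The star is the highest point for 8 genes, among them Lgals4 at 660 and Agr2 at 627 CPM, and lies at 0 for Krt18.

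The promoters of 4 genes are shown because these genes mark the ends of the pattern in the colon of mouse 8: Agr2 and Lgals4 had the most counts there, and Krt8 and Krt18 are the partners of which 1 was high and 1 was at 0. Each runs 5′ to 3′ on the gene's strand from 250 bases before to 50 bases after the gene start, from RefSeq for GRCm38.p6. Capitals mark the motifs searched for. The windows are chr12:35992675-35992974 (plus strand) for Agr2, chr7:28833544-28833843 (plus) for Lgals4, chr15:102004293-102004592 (minus) for Krt8 and chr15:102027966-102028265 (plus) for Krt18.
Agr2: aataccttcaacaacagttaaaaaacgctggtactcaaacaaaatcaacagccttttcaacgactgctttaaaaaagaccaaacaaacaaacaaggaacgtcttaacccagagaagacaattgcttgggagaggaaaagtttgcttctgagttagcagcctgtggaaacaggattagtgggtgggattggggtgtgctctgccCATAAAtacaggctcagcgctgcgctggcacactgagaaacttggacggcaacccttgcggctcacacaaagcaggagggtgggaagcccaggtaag
Lgals4: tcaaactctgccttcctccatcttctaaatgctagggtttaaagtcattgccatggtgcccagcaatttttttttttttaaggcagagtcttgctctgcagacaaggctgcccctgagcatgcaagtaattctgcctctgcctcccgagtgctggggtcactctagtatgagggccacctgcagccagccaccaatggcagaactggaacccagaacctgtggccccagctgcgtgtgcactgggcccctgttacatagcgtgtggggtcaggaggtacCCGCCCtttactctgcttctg
Krt8: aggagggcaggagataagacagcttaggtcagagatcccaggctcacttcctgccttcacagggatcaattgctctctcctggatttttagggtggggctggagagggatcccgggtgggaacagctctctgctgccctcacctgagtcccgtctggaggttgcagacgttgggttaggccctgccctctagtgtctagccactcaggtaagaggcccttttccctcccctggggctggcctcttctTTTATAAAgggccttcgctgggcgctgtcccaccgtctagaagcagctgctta
Krt18: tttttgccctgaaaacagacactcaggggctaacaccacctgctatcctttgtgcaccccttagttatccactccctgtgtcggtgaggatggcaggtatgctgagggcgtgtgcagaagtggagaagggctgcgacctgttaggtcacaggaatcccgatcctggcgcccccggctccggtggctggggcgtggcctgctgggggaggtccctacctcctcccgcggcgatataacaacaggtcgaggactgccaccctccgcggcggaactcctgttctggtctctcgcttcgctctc

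The promoter table held 9 of the 10 genes, all but Cdh17. Searched on both strands, TATAAA was present in Krt8, Krt20 and Muc2, 3 of 9, against 13.6% of 32851 RefSeq promoters. The 2 matches in Krt8 overlap each other. The GC box GGGCGG was found in Tmem30b, Epcam, Muc2, Lgals4 and Vil1, 5 of 9, against 35.7% of all. The CDX core TTTATG was found in Agr2, at position -47 from the gene start, and in Epcam, 2 of 9, against 11.9%. The HNF4 core CAAAGTCC, in 1.42% of all promoters, was found in none of the 9. The window of Krt18 held none of the 4 motifs. A match here is a match of letters only.

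How many colon libraries carry each gene was counted at a minimum of 1 count. All 4 colon libraries carried Tmem30b, Krt8, Krt20, Muc2, Cdh17 and Vil1, and 3 carried Agr2, Epcam, Krt18 and Lgals4. So 6 of 10 genes were carried by every colon library, against 74.5% of all 26366 genes. A minimum of 3 counts left 3 genes (Tmem30b, Krt20 and Muc2, against 56.1% of all genes), and a minimum of 10 counts left 0 (25.2%). Of the 4 strongest genes of mouse 8, Agr2 and Lgals4 had 0 counts in mouse 6, Krt8 had 1 or 2 counts in each other colon library, and Tmem30b had 8 to 24. Every bone marrow library carried 5 of the 10 genes (Tmem30b, Epcam, Muc2, Cdh17 and Lgals4), against 55.3% of all genes. None was carried by all 7 esophagus libraries, against 6.99%.

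Depth sets part of such counts, since the colon libraries held 227179 to 612386 counts and the esophagus libraries 85677 to 371218. Scaled to the shallowest library, 2 genes (Tmem30b and Muc2) were at 1 count or more in every colon library, against 44.7% of all genes. In every bone marrow library there were 4 (Tmem30b, Muc2, Cdh17 and Lgals4), against 34.1%. The number of genes with at least 1 count was 10, 7, 10 and 9 in colon, 8, 8, 6 and 7 in bone marrow and 1 to 7 in esophagus. Of all genes, 94.1%, 84.5%, 96.1% and 87.1% were read in the colon libraries, 72.1% to 83.9% in bone marrow and 26.4% to 75.8% in esophagus.

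Relative to the receptor genes, the colon of mouse 8 again stood alone. The 10 genes together had 54.9 counts per exonic kb there, 7.35 times the receptor density of 7.47 counts per kb. In the other 3 colon libraries the ratio was 0.334, 0.212 and 0.362, and over all 14 other libraries it ran from 0.0573 to 1.14. By gene, the ratio in mouse 8 was 39.8 for Agr2, 23.4 for Lgals4, 18.2 for Krt8, 14.4 for Tmem30b, 3.5 for Cdh17 and 2.99 for Epcam. These 6 genes lay above the receptor density, and Muc2 (0.977), Krt20 (0.764), Vil1 (0.0754) and Krt18 (0) below it. The number of genes above the receptor density was 0, 0, 1 and 6 in the colon libraries, so no gene exceeded it in all 4. Of other coding genes, 6.24%, 6.01%, 8% and 15.6% did so in these libraries, so that the 0 or 1 of 10 outside mouse 8 is near the general share. The 1 exception outside mouse 8 was Tmem30b in mouse 7, at a ratio of 1.01. Bone marrow had 0, 4, 1 and 1 such genes, where 17.8% to 22.2% of other coding genes lay above the receptors.

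**Figure D3:**
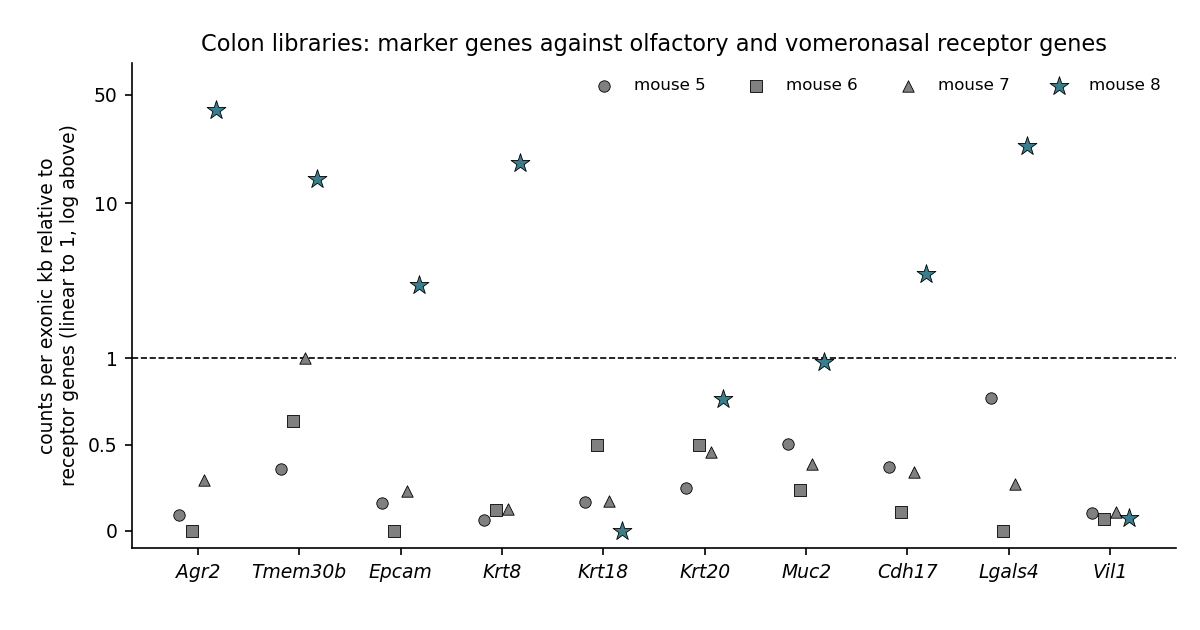
Counts per exonic kb of each gene in the 4 colon libraries, divided by the pooled density of 1439 olfactory and vomeronasal receptor genes in the same library (y axis, linear to 1 and logarithmic above; the dashed line marks equal density). In mouse 8, 6 genes lie above the line, led by Agr2 at 39.8, while mice 5, 6 and 7 lie below it apart from Tmem30b in mouse 7, at 1.01.

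The colon of mouse 8 was the highest of all 15 libraries for 8 of the 10 genes, against 4.1% of all genes. At over 5 times the highest other library, with at least 10 counts, there were 2 genes (Tmem30b and Lgals4), against 0.383% of all genes. No gene was higher in every colon library than in every bone marrow library (3.91% of all genes were) or than in every esophagus library (2.75%). None of the 10 was higher in every bone marrow library than in every esophagus library, against 1.53% of all genes. These shares use the libraries by which the genes were chosen and serve as background only.

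Tests across all genes reached few of the 10. The filter on low counts left 10357 genes, and 2 of the 10, Muc2 and Tmem30b, passed it. The choice of genes did not rest on esophagus against bone marrow, so that comparison was tested. Tmem30b passed the filter only with the colon of mouse 8 among the libraries, so its presence in the test does depend on that choice. For Tmem30b the filtered values are therefore descriptive. In edgeR's quasi-likelihood test with Benjamini-Hochberg adjustment, neither gene was called, against 0.83% of the genes tested. Tmem30b differed by -2.60 on the log2 scale (SE 0.93), with 9.67 ± 17.9 CPM in 7 esophagus and 51.2 ± 30 CPM in 4 bone marrow libraries. Muc2 differed by -0.76 (SE 0.97, edgeR adjusted p = 0.999). With no filter, when all 10 genes entered the same test, the lowest adjusted p was 0.108 for Tmem30b, followed by 0.114 for Krt18 and 0.131 for Lgals4. Libraries of the same mouse were taken as independent in this fit, and a block for mouse called neither gene.

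In comparisons that involve colon, the values are descriptive and share the colon libraries. Tmem30b was 1.56 (SE 0.98) higher on the log2 scale than in bone marrow and 4.16 (SE 0.92) higher than in esophagus. Muc2 was 0.25 (SE 1.09) and 1.01 (SE 0.95) higher. These Muc2 values became -0.17 (SE 1.30) and 0.61 (SE 1.15) without the colon of mouse 8. Of the 2 genes that entered the fit, 0 passed the threshold against bone marrow, where 0.434% of genes tested did. Against esophagus 1 (Tmem30b) did, where 0.0869% did, and nothing is read from this because the genes were chosen by their colon counts. Tmem30b no longer passed with mouse as a block (2.92) or without the esophagus of mouse 1, 3, 5, 6 or 8 (3.95 to 4.18). Without the colon of mouse 8 or the esophagus of mouse 2 or 7, Tmem30b did not pass the filter, and DESeq2 gave no p for it. With no filter, Lgals4 passed against esophagus too (log2 difference 5.43).

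Sex and cage form 1 split that the choice of genes did not name, but its M libraries include the colon of mouse 8, without which Tmem30b did not pass the filter. Fitted together with tissue, and with each mouse treated as a random block, the split gave no call for either gene in limma voom. Muc2 was 0.26 higher in M (SE 0.83) and Tmem30b 1.63 higher (SE 0.81). For Tmem30b these values are descriptive. Called genes made up 0.463% of those tested. Without the colon of mouse 7, the log2 difference of Tmem30b was 3.20 and passed the threshold. Nothing is read from this, because the colon of mouse 8 brought the gene into the fit. The colon libraries of M mice were 7 and 8, so that the lone M colon library was then mouse 8, taken to vary like the other groups. Without the colon of mouse 8, the difference of Muc2 was -0.01.

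Other intestinal genes were read in the colon of mouse 8 beside the 10. Of the lists of absorptive and secretory epithelium, the polymeric receptor and mucins were the furthest from the other libraries by summed CPM, mostly through Pigr. Pigr, the receptor that carries IgA and IgM across the epithelium, had 122, 3, 28 and 2132 counts in colon. Muc3, a membrane mucin, had 36, 10, 48 and 192, and Spint2, a serine protease inhibitor of epithelia, had 18, 8, 17 and 194. The 9 genes of this list summed to 4674 CPM in mouse 8, with Pigr alone at 3481 CPM. The sum was 180 to 550 CPM in the other colon libraries and at most 521 CPM elsewhere. In mouse 8, 5 of the 9 were at their highest of all 15 libraries, against 4.1% of all genes. Of the 9, 2 were over 5 times the highest other library with at least 10 counts, against 0.383% of all genes. Another 1 was at 0, in a library where 87.1% of all genes were read.

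Absorptive colonocyte genes summed to 3806 CPM in mouse 8, which is 6.71 times the next colon library, and to 373 to 1657 CPM in esophagus. Dmbt1, a scavenger receptor protein of mucosal surfaces, had 25, 4, 19 and 725 counts, and Car2, a cytosolic carbonic anhydrase, had 14, 5, 10 and 440. Slc26a2, a sulfate transporter, had 78, 30, 99 and 223 counts, and its CPM in mouse 8 (364) was below its highest in another library (584). Of the 17 genes of this list in the table, 7 were highest in mouse 8, against 4.1% of all genes. More than 5 times the highest other library was reached by 5 of them, against 0.383% of all genes. There were 2 genes of the list with 0 counts in mouse 8.

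Goblet cell genes summed to 918 CPM in mouse 8, a smaller gap to the 294 to 369 CPM of the other colon libraries. Zg16, a lectin of the secretory granules, had 3, 2, 8 and 257 counts, whereas Sytl2 (61, 37, 88 and 87) and Fcgbp (23, 15, 34 and 76), a protein of the mucus layer, were spread over all 4. Of the 13 genes in the table, 2 were highest in mouse 8. For this list and those that follow, the share of all genes highest there was 4.1%, and 87.1% of all genes were read there. Brush border genes reached 949 CPM (427 to 516 in other colon libraries), with 2 of 12 genes highest in mouse 8. Pls1, the plastin of microvilli, had 8, 5, 12 and 337 counts, while Usp53 (90, 47, 61 and 86) and Plec (57, 28, 102 and 37) were spread over all 4. Epithelial junction and polarity genes reached 1053 CPM (493 to 637), with 4 of 18 genes highest in mouse 8, 0 of them by more than 5 times, and 2 at 0 there. Cdh1, E-cadherin, had 26, 5, 24 and 255 counts, and the desmosomal genes Dsg2 and Dsp had 53, 17, 31 and 108 and 20, 4, 58 and 46. Intestinal transcription factors reached 954 CPM (387 to 512), with 3 of 13 genes highest in mouse 8. Klf5 had 31, 14, 39 and 203 counts, Ehf 43, 16, 32 and 138, and Grhl2 57, 12, 39 and 37.

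The remaining epithelial lists, simple keratins among them, did not stand out by high levels in that library. Crypt base and stem cell genes summed to 580 CPM in mouse 8 and to 493 to 662 CPM in the other colon libraries, with Lgr5 at 51, 25, 72 and 54 counts. Enteroendocrine genes stood at 144 CPM (133 to 166), tuft cell genes at 253 CPM (243 to 275) and small intestinal genes at 351 CPM (329 to 427). The 4 other simple keratins and their partners were at 62.1 CPM, below the 86.6 to 144 CPM of the other colon libraries. Genes of squamous esophageal epithelium were at 341 CPM against 361 to 387.

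**Figure D4:**
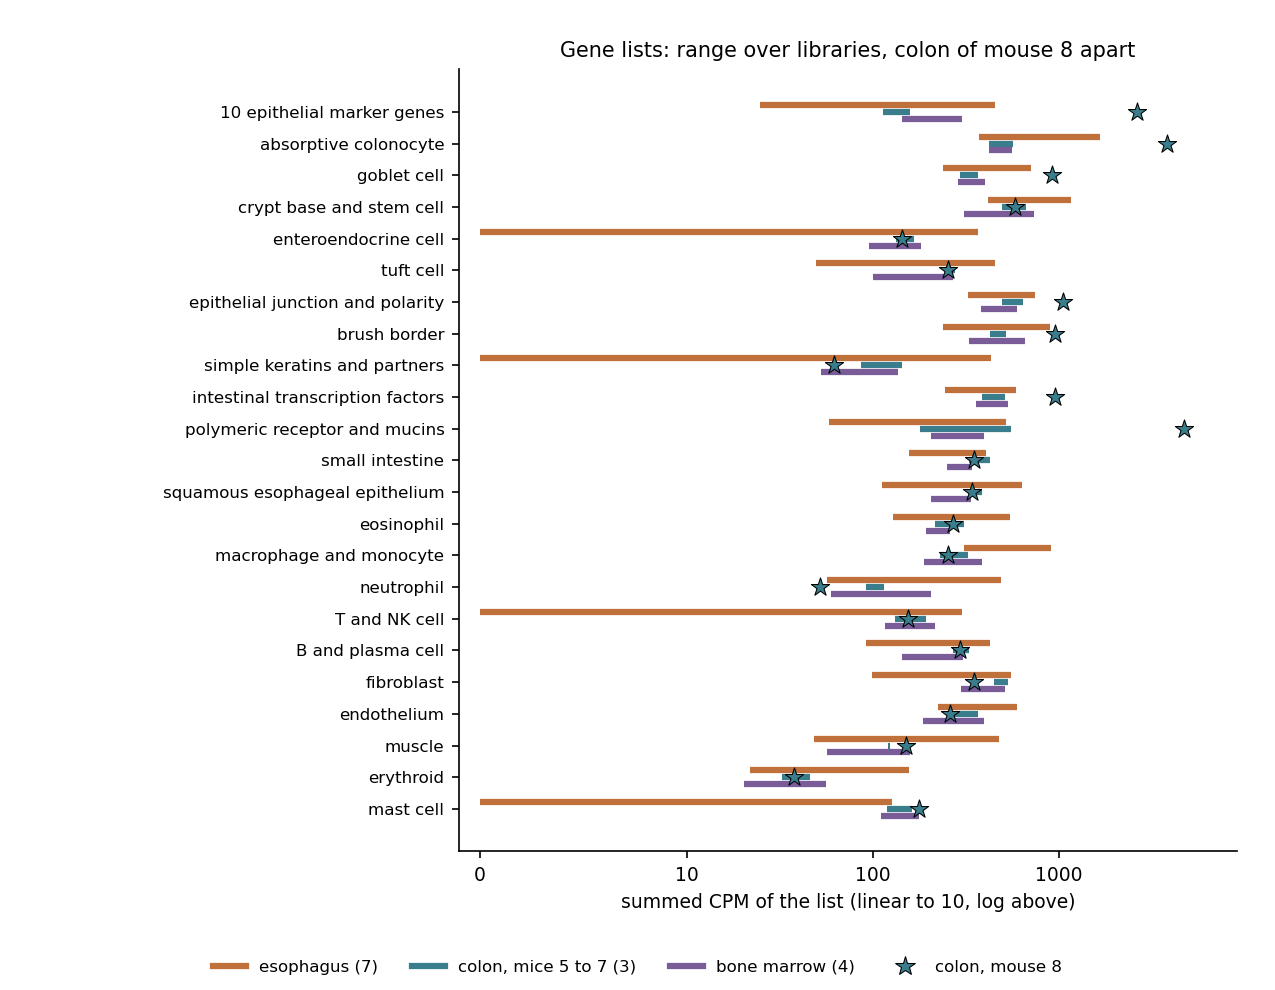
Summed level of each gene list in CPM of the library total (x axis, linear to 10 and logarithmic above): bars span the lowest to highest library of esophagus, of colon of mice 5 to 7 and of bone marrow, and stars give the colon of mouse 8. The star lies right of all bars for the 10 marker genes (2624 CPM), absorptive colonocyte (3806), polymeric receptor and mucin (4674) genes and, by less, for goblet cell, junction, brush border and transcription factor lists.

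Markers of other cell types of the lamina propria moved little with the epithelial genes. In mouse 8 and in the other colon libraries respectively, macrophage and monocyte genes summed to 253 and 229 to 325 CPM, T and NK cell genes to 155 and 132 to 192, and B and plasma cell genes to 294 and 269 to 330. Endothelial genes stood at 260 CPM against 258 to 369, and erythroid genes at 37.6 against 32.4 to 46.2. Neutrophil genes (52.3 against 92.4 to 115 CPM) and fibroblast genes (349 against 450 to 533 CPM) were lower in mouse 8, and mast cell genes (178 against 119 to 163) and muscle genes (150 against 121 to 123) higher. All 10 B and plasma cell genes and all 9 fibroblast genes had counts in mouse 8, as had 87.1% of all genes. In the same library 2 of 12 macrophage and 2 of 8 neutrophil genes had 0. These lists are short, and nothing is read from such differences. The part of mitochondrial counts, ribosomal protein counts or depth in the epithelial signal of mouse 8 was not tested.

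In the sum of the 10 genes, the same mouse gave no such signal elsewhere. The bone marrow of mouse 8 held 227 CPM of the 10 genes and its esophagus 164 CPM, both within the range of the other mice. Agr2 and Krt8, at 627 and 434 CPM in its colon, had 0 counts in its bone marrow. In its esophagus, Krt8 was at 0 and Agr2 at 10.2 CPM. Some single genes were high in these libraries. Vil1 had its highest value of all libraries in the esophagus of mouse 8 (97.1 CPM). Among bone marrow libraries, that of mouse 8 was highest for Muc2 (60.8 CPM), Cdh17 (44.6) and Vil1 (36.5).

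Genes whose level ran most like the sum of the 10 over the 15 libraries were found by Pearson correlation of log2(CPM + 10), among genes that passed the filter. The libraries share depth and protocol, so these are descriptions. Tfrc, the transferrin receptor, gave r = 0.784 (Spearman rho 0.636), and Eef1a1, a translation elongation factor, 0.776 (0.864). Sh3d19 gave 0.756 with a rho of 0.138, ND4L, a mitochondrially encoded complex I subunit, 0.723 (0.475), and Hoxd11, a homeobox gene, 0.721 (0.685). Without the colon of mouse 8, r was 0.685 for Tfrc, 0.761 for Eef1a1 and 0.715 for Hoxd11, and it dropped to 0.51 for Sh3d19 and 0.43 for ND4L.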

How the data were processed

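RNA sequencing was measured in 15 libraries from 7 mice, 7 of esophagus, 4 of colon and 4 of bone marrow. The authors deposited 1 table of raw counts per gene, whole numbers with no normalization, as its title says. The labels' protocols give amplification of the RNA by an Ovation RNA-seq kit and an NEB library preparation. In the submitters' processing notes limma 3.50.3 is listed, its use unstated. Aligner, counting tool and genome build were not given in the sources used here. Total counts ranged from 85677 to 612386 per library.

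The 10 genes and all 22 gene lists were chosen with earlier results of these data known. From each list, the text names at most the 3 genes with the highest summed colon counts. Epx, Siglecf, Prg2 and Prg3 were added after their values were seen. The 5 genes most like the sum of the 10 are also named. Of 261 list genes, 244 were in the table. Counts were divided by the library total for CPM, and by the union of exons of GENCODE M21 for counts per kb, to which 26299 identifiers (99.7%) matched. No coordinates come from that release other than chromosomes.

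Tests used edgeR 4.0.16, DESeq2 1.42.0 and limma 3.58.1 in R 4.3.3, and the rest Python 3.11.15 with pandas 2.3.3 and BLAST 2.17.0. Low genes were removed with filterByExpr (at a minimum count of 10 and total of 15), and TMM factors scaled the rest. Tissues were compared in 1 edgeR quasi-likelihood fit of all libraries, with robust dispersion, 12 residual degrees of freedom and no block, at an adjusted p under 0.05. Sex was fitted with limma voom (correlation within mouse 0.194). Each fit was run on simulated data with large changes, a smaller spread than in these data and no link between libraries of a mouse. The simulation therefore does not measure error rates in these data. Same-numbered libraries come from the same mouse, so the labels pair them. Their deviations from the group means correlated at a mean of 0.0165 (-0.0207 to 0.0362, 12 pairs), against -0.00302 in 60 other pairs. Alternatives were other size factors, DESeq2, no filter, a mouse block, each replicate left out, other minimums of counts and, chosen after seeing the data, the density of receptor genes.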

Additional observations from a re-analysis of the deposited data

Results flagged for a closer look

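Within each tissue, 32 sets of values (the 10 genes and their sum) were searched for a library far from the rest by Dixon's criterion. Its nominal rate of 1 in 20 is for normally spread values and cannot be applied here, because many sets hold mostly counts of 0. A set with counts in only 1 library meets the criterion at any level, as for Epcam in esophagus and Agr2 in bone marrow. The criterion was met 15 times, 7 of them by the colon of mouse 8. Those 7 were Lgals4 (660 CPM), Agr2 (627), Tmem30b (526), Krt8 (434), Cdh17 (191), Epcam (80) and the sum (2624 CPM). In esophagus, 6 values lay far above the other libraries of the tissue. They were Krt18 (373 CPM) and Krt20 (11.7, from 1 count) in mouse 3, Krt8 (212) in mouse 1, Agr2 (157) in mouse 5, and Tmem30b (48.4) and Epcam (17.6) in mouse 7. In bone marrow, mouse 6 stood apart for Lgals4 (68.8 CPM) and Agr2 (21.2 CPM, from 4 counts). What sets these libraries apart was not tested.

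Differences between tissues of the same mouse went opposite ways in F and M mice for a few genes, which was not tested as an interaction and rests on 2 mice of each sex. Colon minus bone marrow averaged -20.9 CPM in F and 25.9 CPM in M mice for Epcam, and -13.8 and 75.3 CPM for Cdh17. For the sum of the 10 genes these means were -112 and 1203 CPM. Colon minus esophagus averaged 5.09 CPM in F and -77.3 CPM in M mice for Vil1. All 4 M means include the colon of mouse 8. In mouse 7, Epcam had 7.2 CPM in colon and 6.99 in bone marrow, and Cdh17 had 21.6 and 17.5. The sum was 151 and 143 CPM there. For Vil1, F mice 5 and 6 had 3 and 1 counts in colon and 0 in esophagus. A count of 0 in those esophagus libraries allows up to 33.7 and 14.8 CPM.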

How the results depend on the processing

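The number of the 10 genes carried by every colon library, 6 at 1 count, was 3 at a minimum of 3 counts, 0 at 10 counts, 2 after scaling to the shallowest library and 0 above the receptor density. Leaving out 1 colon library gave 6 to 9. The summed colon level ranged from 141 CPM (without mouse 8) to 978 CPM. Against esophagus, 1 gene (Tmem30b) was called, 0 with DESeq2, which gave no p for it, 2 with no filter and 0 with mouse as a replicate block, and 0 to 1 with a library left out. Over all genes, calls of esophagus against bone marrow went from 86 to 153 with no filter (74 to 117 with a library left out). Calls of colon against bone marrow went from 45 to 82 with DESeq2, 79 with no filter and 80 with the replicate block (42 to 80). Calls of colon against esophagus went from 9 to 15 with DESeq2, 97 with no filter and 4 with the block (1 to 32). Calls between M and F went from 48 to 26 with no filter (27 to 104). Of the 10 genes, 0 to 1 was called between sexes with a library left out, and 0 against bone marrow in either comparison. The block changed no other call of the 10. Muc2 between sexes ranged from -0.01 (without the colon of mouse 8) to 0.62 with a library left out. By scaling alone, the median log2 difference of all genes, esophagus against bone marrow, moved from -0.18 with TMM to 0.21 with library size. The causes of these changes were not tested. Depth limits the low genes: Krt18, Krt20, Epcam and Vil1 had 36 to 78 counts in all 15 libraries.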

Other observations

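Genes other than the 10 lay furthest from the other libraries in the colon of mouse 8. With at least 100 counts and 10 times the highest other library, 34 genes stood out there, 0 of them among the 10. They held 12136 counts, or 1.98% of the library. The same limits gave 8 genes in the esophagus of mouse 1, 3 in the bone marrow of mouse 6, at most 2 in any other library and 0 in the other colon libraries. The limit of 100 counts was not scaled to depth, so it was stricter in shallower libraries. The colon of mouse 8 held 612386 counts and the esophagus of mouse 1 held 141648. The colon of mice 5 and 7, with 0 such genes, held 519668 and 555689. The genes below were chosen after their values were seen.

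Beside Pigr (2132 counts, 3481 CPM), Dmbt1 (725 counts) and Car2 (440 counts), the 34 held genes of mitochondrial respiration, which are used by most cells. Uqcrb, a complex III subunit, had 1055 CPM against at most 101 CPM elsewhere, Ndufa5, of complex I, 532 against 31.7, and Uqcrc2 284 against 21.1. Others act in general cell functions. Nedd8, a ubiquitin-like modifier, had 665 CPM against at most 26.4, and Hspe1, a mitochondrial chaperonin, 349 against 21.6. Klk1, a tissue kallikrein, had 335 CPM against 8.08. Gm15500, annotated as a transcribed processed pseudogene, had 177 counts against 0 in all other libraries.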
